A study of Mus musculus with 8 samples.

Results

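The genes described here are 6 mouse genes of innate immune sensing and NF-kB signalling, out of 55416 rows in a liver count table: Ddx58, Ripk2, Map3k7, Otulin, Irf5 and Cd72. They were chosen by function and by position, because only in 3 stretches of the genome do the row names fit the counts. All 6 were measured and all 6 passed the filter on low counts. RNA came from livers of SostPB/- mice (4 libraries) and Sost-/- mice (4 libraries), labelled as biological replicates. All were fed an MCD diet, a name that in this field stands for food lacking methionine and choline, used to bring on steatohepatitis. Both genotypes carry the allele written with a minus sign, and the PB allele is not explained in the labels. The study asks how overexpression of Sost, which encodes the Wnt inhibitor sclerostin, affects this liver disease, and its text does not say which group overexpresses the gene. The labels give neither age nor sex.

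Innate immune cells and hepatocytes detect microbial and damage signals through sensors in the cytosol and at membranes. RIG-I, encoded by Ddx58, binds viral RNA and signals to interferon genes, and NOD receptors bind bacterial wall fragments and recruit the kinase RIPK2. RIPK2 signals through TAK1, the kinase encoded by Map3k7, which switches on the IkB kinases that free NF-kB. OTULIN trims the linear ubiquitin chains that hold the signalling complexes of this pathway together. In steatohepatitis, liver macrophages and hepatocytes are known to use this pathway to make inflammatory cytokines.

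The libraries held 9578086 to 14613316 counts in SostPB/- livers and 9919069 to 14932773 in Sost-/- livers (exact two-sided permutation test of the means, p = 0.657, n = 4 per group). With 4 libraries on each side no p below 0.0286 is possible. Mitochondrial rows took 59.3% ± 3.92 of counts in SostPB/- and 51.9% ± 5.14 in Sost-/- livers (SD, n = 4; exact permutation test, p = 0.114). Nuclear rows held 3716995 to 5965461 counts in SostPB/- and 5112898 to 6094740 in Sost-/- libraries. In nuclear counts SostPB/- replicates 1, 3 and 4 lay below every Sost-/- library. The number of rows above 0 was 14459 to 14762 in SostPB/- and 15436 to 16629 in Sost-/- libraries, without overlap. The part of these library differences in the values below was not tested, apart from a fit without mitochondrial rows. The row of Sost (chromosome 11, 101962458 to 101967015, GRCm38) held 0 counts in every library, which allows up to 3 counts per library. It lies off the stretches where names fit, so it gives no check of the genotypes.

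Whether the 6 rows count the genes they name was examined from their surroundings. On the stretches (chromosome 4 from 3806635 to 62391769, chromosome 6 from 3583814 to 30896794 and chromosome 15 from 8109273 to 35863368, GRCm38), 19 of 20 genes of families that nearly all cells use had a mean of at least 100 counts, against 96 of 577 elsewhere. This contrast partly restates how the stretches were chosen. The family genes were picked by the opening letters of their symbols. None of 13 olfactory, taste and vomeronasal receptor rows there reached that level. Within 1500 kb of each gene, the share of protein-coding rows with at least 100 counts was 69.7% around Ddx58, 80% around Ripk2, 60% around Map3k7, 54.8% around Irf5, 57.1% around Otulin and 36.2% around Cd72, against 15.3% off the stretches. The nearest genes of these families bear on the 6 rows unequally. Ndufb6, of the respiratory chain, lies 30.8 kb from Ddx58 and had a mean of 797 counts. Vcp, an ATPase that extracts ubiquitinated proteins, lies 446 kb from Cd72 and had 11538. The nearest to Irf5 by symbol, Atp6v1fnb at 53.2 kb, had a mean of 0.375 counts and is the exception among the 20. Its place in the family was not checked beyond its opening letters, so its low count says little about row names. Of the 2 genes so picked within 1500 kb of Irf5, 1 reached 100 counts. Ripk2, Map3k7 and Otulin had 0 such genes within that distance, and for Otulin the nearest on its stretch, Cct5, lies 3960 kb away. By nearby genes of these families, the names of Ripk2, Map3k7 and Otulin are thus less well checked than those of Ddx58 and Cd72. By the share of protein-coding rows with at least 100 counts, Cd72 stood lowest of the 6, at 36.2%. For Irf5 the check within that distance rests on 1 such gene, as it does for Cd72. A small displacement of a row from its gene cannot be seen this way. The rows of the macrophage marker Adgre1 and of the listed Toll-like receptors lie off the stretches and are not analysed here.

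RefSeq promoters (GRCm38.p6, 250 bases before to 50 after the annotated start) were at hand for 5 of the 6 genes and were searched on both strands. The motifs were the interferon-stimulated response element, written as GAAA and GAAA parted by any 2 bases, the same element with any 1 base between, and the NF-kB consensus. The shorter spacer was added after the Ddx58 promoter had been read. The pair that held a match is shown so that the place of the letters can be seen, with the matched letters in capitals.
Ddx58 promoter, chr4:40239776-40240075, minus strand: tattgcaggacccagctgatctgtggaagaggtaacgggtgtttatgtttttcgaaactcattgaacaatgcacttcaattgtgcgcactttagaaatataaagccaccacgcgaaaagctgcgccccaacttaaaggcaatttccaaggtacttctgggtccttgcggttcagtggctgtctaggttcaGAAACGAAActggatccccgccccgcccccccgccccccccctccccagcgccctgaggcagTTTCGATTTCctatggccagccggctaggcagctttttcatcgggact
Map3k7 promoter, chr4:31963857-31964156, plus strand: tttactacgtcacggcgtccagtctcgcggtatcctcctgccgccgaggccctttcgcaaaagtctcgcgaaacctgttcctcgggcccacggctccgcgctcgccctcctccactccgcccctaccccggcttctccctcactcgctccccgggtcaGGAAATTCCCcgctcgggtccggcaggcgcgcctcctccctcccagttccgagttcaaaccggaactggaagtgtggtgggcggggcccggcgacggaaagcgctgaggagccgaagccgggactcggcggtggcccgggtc
In Ddx58 the first capitals are a 1-base-spacer element, beginning 60 bases before the start, and the later capitals are a 2-base-spacer element on the opposite strand just after the start. In Map3k7 the capitals match the NF-kB consensus on the opposite strand, beginning 92 bases before the start. The matches did not overlap each other. The letters searched for were not in the windows of Irf5, Otulin and Cd72. Among all 32851 promoters in the table, 3.44% held the 2-base-spacer element, 3.17% the 1-base-spacer element and 4.51% the NF-kB consensus. A match describes the letters alone and is not evidence of a bound site.

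The question put to these 6 transcripts was whether their levels differ between SostPB/- and Sost-/- livers. None of the 6 passed edgeR's quasi-likelihood test at an adjusted p of 0.05, and DESeq2 and limma-voom with sample quality weights also called 0 of them, where DESeq2 called 0.356% of the 14604 rows to which it gave an adjusted p. Their estimated changes were small, between 0.87-fold and 1.14-fold, and their groups overlapped. A missed threshold does not show equal levels, and the interval given with each gene is the range of differences these libraries leave. The background was equally empty: 0% of 10020 tested rows and 0% of 456 nuclear rows on the stretches passed in edgeR. At an unadjusted p under 0.05 there were 6.45% of all tested rows, 8.33% of those on the stretches and 0 of the 6 genes. Groups did not overlap in 3.92% of all rows, in 4.17% of those on the stretches and in 0 of the 6 genes. Adjusted p-values of single genes are over all 10020 rows, CPM values are on TMM-scaled library totals, and intervals are 95% intervals of the edgeR fold change.

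The sensor came first. Ddx58 (ENSMUSG00000040296.16, chromosome 4, 40203773 to 40239828, minus strand), the RIG-I gene, is itself induced by interferon. It had 122, 131, 152 and 178 CPM in SostPB/- replicates 1 to 4, and 147, 127, 102 and 133 CPM in Sost-/- replicates 1 to 4. SostPB/- replicates 3 and 4 lay above every Sost-/- library, the other SostPB/- libraries lay within the Sost-/- range, and Sost-/- replicate 3 was the lowest of all. Ddx58 averaged 146 ± 25.1 CPM in SostPB/- and 127 ± 18.7 CPM in Sost-/- livers (SD, n = 4). SostPB/- over Sost-/- gave a log2 fold change of 0.19 (SE 0.17, adjusted p = 0.958 in edgeR), and its interval ran from 0.88-fold to 1.49-fold. Scaled by totals alone, Ddx58 stood at a log2 fold change of 0.0051. That scaling moved the median of all rows by -0.20, and relative to the median Ddx58 stood at 0.21. Without mitochondrial rows its log2 fold change was 0.20.

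Ripk2 (ENSMUSG00000041135.16, chromosome 4, 16122733 to 16163647, minus strand) encodes the kinase that relays signals from NOD1 and NOD2. It had 46.3, 56.2, 32.2 and 29.0 CPM in SostPB/- replicates 1 to 4, and 35.88, 45.6, 35.0 and 41.3 CPM in Sost-/- replicates 1 to 4. None of the SostPB/- libraries fell inside the Sost-/- range: replicates 1 and 2 lay above it and replicates 3 and 4 below it. The means were nearly equal, 40.9 ± 12.6 CPM in SostPB/- and 39.4 ± 4.98 CPM in Sost-/- (SD, n = 4), at a log2 fold change of 0.055 (SE 0.23, edgeR adjusted p = 0.990, interval 0.73-fold to 1.47-fold). The coefficient of variation was 30.91% in SostPB/- and 12.6% in Sost-/- livers, where counting error accounts for 4.74% and 4.60%. The coefficient was also higher in SostPB/- livers for Ddx58 and Map3k7, and lower there for Irf5, Otulin and Cd72. These differences in spread were not tested. Leaving out SostPB/- replicate 2 gave a log2 fold change of -0.14, and leaving out SostPB/- replicate 4 gave 0.19.

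Map3k7 (ENSMUSG00000028284.14, chromosome 4, 31964097 to 32023467, plus strand), the TAK1 gene, had the narrowest interval together with Otulin. It had 178, 190.3, 230.1 and 219 CPM in SostPB/- replicates 1 to 4, and 218, 217, 180.0 and 223 CPM in Sost-/- replicates 1 to 4. Each group held libraries near 180.0 CPM and libraries near or above 217 CPM. The means were 204 ± 24.4 CPM in SostPB/- and 209 ± 19.8 CPM in Sost-/- (SD, n = 4) and the log2 fold change -0.036 (SE 0.15, adjusted p = 0.990 in edgeR). The interval ran from 0.78-fold to 1.22-fold. With totals alone the log2 fold change was -0.24, and -0.031 relative to the median of all rows.

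Otulin (ENSMUSG00000046034.9, chromosome 15, 27542635 to 27630693, minus strand) encodes the deubiquitinase that cuts linear ubiquitin chains and so restrains NF-kB signalling. It had 88.5, 79.7, 94.8 and 87.1 CPM in SostPB/- replicates 1 to 4, and 80.3, 103, 101 and 107 CPM in Sost-/- replicates 1 to 4. Sost-/- replicates 2, 3 and 4 were the 3 highest libraries, and Sost-/- replicate 1 was the second lowest. The means were 87.5 ± 6.22 CPM in SostPB/- and 97.8 ± 11.9 CPM in Sost-/- (SD, n = 4) and the log2 fold change -0.16 (SE 0.15, edgeR adjusted p = 0.958, interval 0.72-fold to 1.12-fold). Without Sost-/- replicate 1 the log2 fold change was -0.24, with an edgeR adjusted p of 0.794, where the alternatives ranged from 0.701 to 0.9999. Totals alone gave -0.37, or -0.17 relative to the median of all rows, at the lowest of those adjusted p-values and an unadjusted p of 0.0906. Its span overlaps Ank on the opposite strand, but the exons share 0 bases.

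Irf5 (ENSMUSG00000029771.13, chromosome 6, 29526625 to 29541871, plus strand) encodes a transcription factor that acts downstream of Toll-like receptors and drives cytokine genes in macrophages. It had 56.0, 48.2, 45.4 and 36.3 CPM in SostPB/- replicates 1 to 4, and 43.6, 68.0, 54.6 and 47.1 CPM in Sost-/- replicates 1 to 4. Sost-/- replicate 2 was the highest and SostPB/- replicate 4 the lowest, with the rest interleaved. The means were 46.5 ± 8.11 CPM in SostPB/- and 53.3 ± 10.8 CPM in Sost-/- (SD, n = 4) and the log2 fold change -0.20 (SE 0.19, edgeR adjusted p = 0.960, interval 0.65-fold to 1.175-fold). The value was -0.059 without Sost-/- replicate 2. Scaled by totals alone it was -0.40, and -0.19 relative to the median of all rows. Of its 2905 exon bases, 14.1% are shared with Tnpo3 on the opposite strand, a nuclear import gene with a mean of 2781 counts. No source used here names the counting strand, and reads of that part from either gene cannot be told apart.

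Cd72 (ENSMUSG00000028459.12, chromosome 4, 43446462 to 43454628, minus strand) encodes a surface receptor of B cells that damps signals from the B cell receptor. It was the lowest of the 6, with 66 to 195 counts per library. It had 7.63, 5.63, 9.19 and 13.8 CPM in SostPB/- replicates 1 to 4, and 7.46, 16.9, 11.1 and 5.68 CPM in Sost-/- replicates 1 to 4. All SostPB/- libraries but the lowest lay within the Sost-/- range, and Sost-/- replicate 2 was the highest of all. The means were 9.07 ± 3.4995 CPM in SostPB/- and 10.3 ± 4.97 CPM in Sost-/- (SD, n = 4) and the log2 fold change -0.18 (SE 0.38, adjusted p = 0.981 in edgeR). Its interval was the widest, from 0.49-fold to 1.58-fold, and its log2 fold change ranged from -0.46, leaving out SostPB/- replicate 4, to 0.17, leaving out Sost-/- replicate 2. Under scaling by totals alone it was -0.38, and -0.18 relative to the median of all rows. Of its 3422 exon bases, 41.6% are shared with the kinase gene Tesk1 on the opposite strand, which had a mean of 811.5 counts. With the strand unknown, reads of Cd72 and Tesk1 in the shared bases cannot be told apart.

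**Figure D1:**
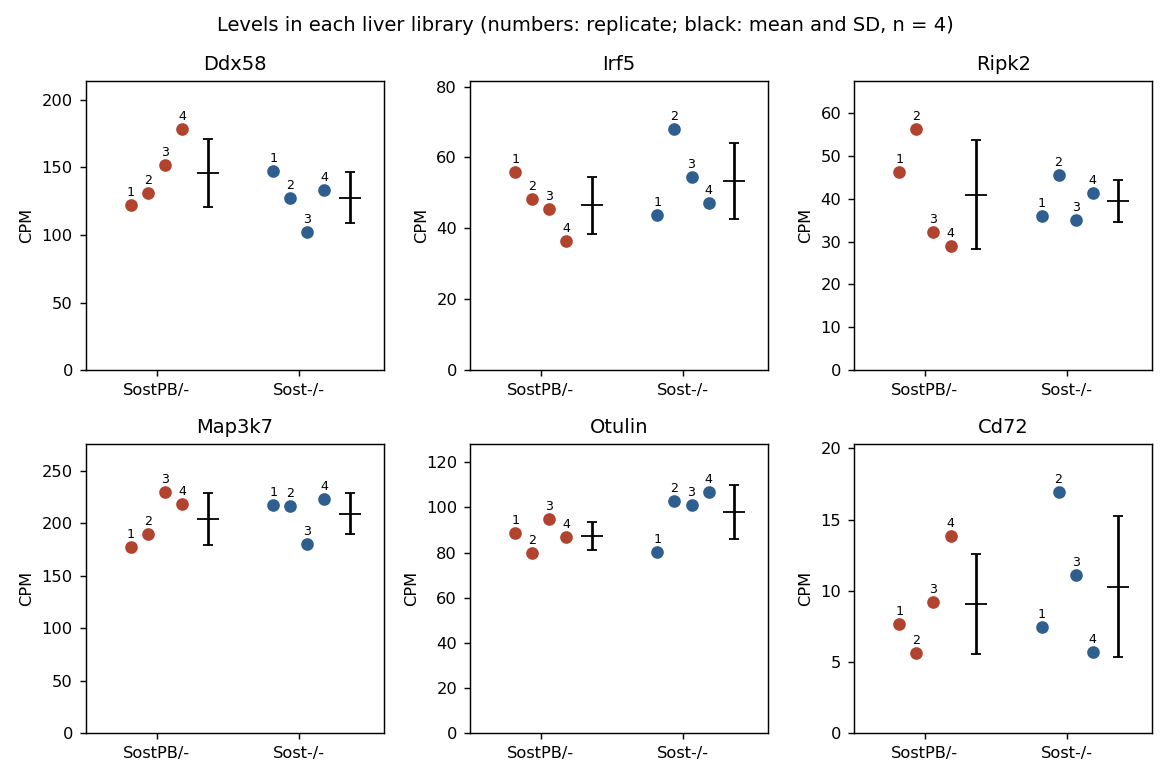
CPM of each gene (vertical axes, from 0) in the 4 SostPB/- and 4 Sost-/- libraries, each point a library with its replicate number and the black marks the mean and SD. Ripk2 lies outside the Sost-/- range in all 4 SostPB/- libraries, above it in 2 and below it in 2, while the groups of the other genes interleave.

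Set per kilobase of exon in GENCODE M21, the 6 transcripts fell partly into steps. This order rests on the exon lengths of that release, 1693 bases for Otulin, 6423 for Map3k7 and 7050 for Ddx58. In mean CPM, without length, Map3k7 and Ddx58 stood above Otulin in both groups. Otulin was the highest at 54.7 ± 6.13 CPM per kb, above 76.4% of the 368 readable protein-coding rows tested (SD, n = 8 libraries). Map3k7 followed at 32.2 ± 3.23 CPM per kb, and its highest library, at 35.8, lay below the lowest Otulin library, at 47.1. Ddx58 at 19.4 ± 3.21, Irf5 at 17.2 ± 3.29 and Ripk2 at 14.3 ± 3.17 CPM per kb overlapped with their neighbours in this order, so their ranking was within the spread. Every Map3k7 library lay above every Ddx58 library. Cd72 was lowest at 2.83 ± 1.18 CPM per kb, and its highest library, at 4.95, lay below the lowest Ripk2 library, at 10.3. In bulk liver a low level of a B cell gene cannot be split into few cells or little RNA per cell.

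**Figure D2:**
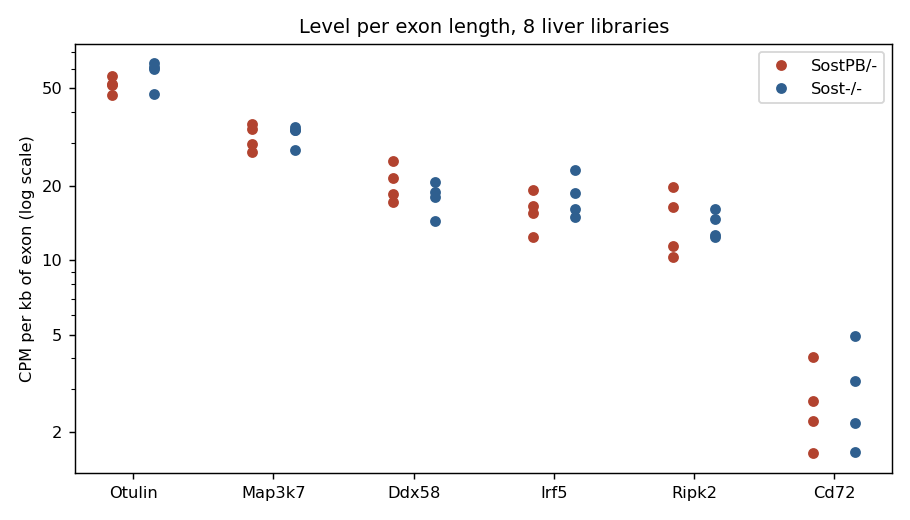
CPM per kb of exon (log axis) for the 6 genes in order of their mean, each point a library, SostPB/- at the left and Sost-/- at the right of each gene. Otulin, Map3k7 and Cd72 form steps of their own, with Ddx58, Irf5 and Ripk2 overlapping between them.

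Ratios of counts between genes within a library do not depend on scaling. In none of the 15 pairs did the ratio separate the groups. Ddx58 to Map3k7, the RNA sensor over the kinase TAK1, is shown as a pair chosen after the values were seen. That ratio was 0.686, 0.687, 0.660 and 0.813 in SostPB/- replicates 1 to 4, and 0.675, 0.587, 0.568 and 0.597 in Sost-/- replicates 1 to 4. Sost-/- replicate 1 lay inside the SostPB/- range and the other Sost-/- libraries below it. The ratio of Ddx58 to Otulin was 1.67 ± 0.278 in SostPB/- and 1.33 ± 0.350 in Sost-/- livers (SD, n = 4), again with Sost-/- replicate 1, at 1.83, among the SostPB/- values. That of Irf5 to Otulin was close, at 0.533 ± 0.102 in SostPB/- and 0.546 ± 0.0897 in Sost-/- livers.

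The libraries did not rank alike across the genes. SostPB/- replicate 4 was highest of all in Ddx58 and second highest in Cd72, but lowest of all in Irf5 and Ripk2. SostPB/- replicate 2 was highest in Ripk2 and lowest in Otulin and Cd72. Sost-/- replicate 2 was highest in Irf5 and Cd72. Together the 6 genes took 0.0498% ± 0.00372 of all counts in SostPB/- and 0.0576% ± 0.00822 in Sost-/- livers (SD, n = 4). Of nuclear counts they took 0.123% ± 0.00997 in SostPB/- and 0.1196% ± 0.00940 in Sost-/- livers. The direction thus turned with the denominator, and the groups overlapped on both.

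**Figure D3:**
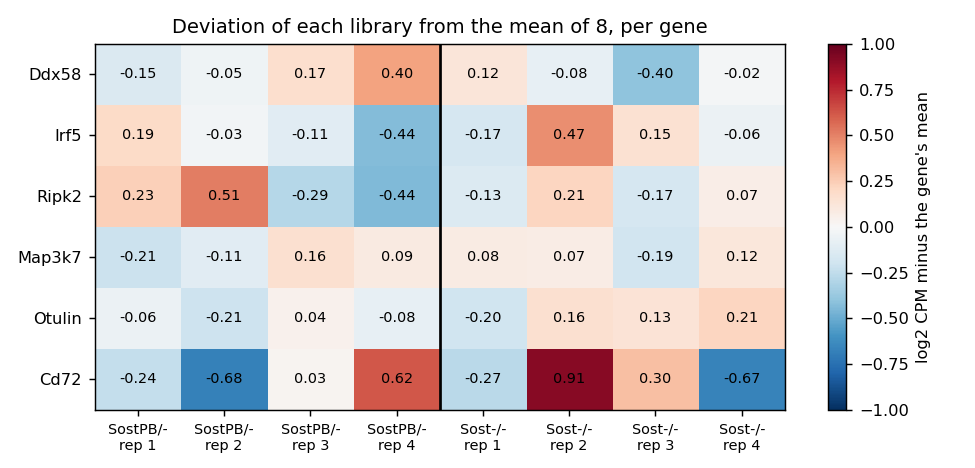
Log2 CPM minus the gene's mean over 8 libraries (colour and printed value) for the 6 genes (rows) in the SostPB/- libraries, left of the line, and the Sost-/- libraries, right of it. SostPB/- replicate 4 stands at 0.40 for Ddx58 and at -0.44 for both Irf5 and Ripk2.

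Among 320 other readable protein-coding genes with a mean of at least 50 counts, those nearest to each of the 6 were sought by the mean absolute difference of centred log2 CPM over the 8 libraries. Irf5 lay nearest to Tfec, a transcription factor of macrophages, at 0.067, and next to Skp2, of the cell cycle, at 0.11, where the median distance to all candidates was 0.32. Ddx58 lay nearest to Dpy19l4 and to the DNA repair gene Rad23b, both at 0.050, against a median of 0.25. Map3k7 lay nearest to Ecpas, a proteasome adaptor, at 0.054, and to the choline transporter-like gene Slc44a1 at 0.059. Otulin lay nearest to the DNA repair gene Xpa at 0.074 and to Tmem38b at 0.077. Ripk2 and Cd72 lay farther from their nearest genes: Ripk2 stood 0.12 from Tesk1 and 0.16 from the galactose enzyme gene Galt, and Cd72 0.28 from Gba2 and 0.30 from Mest. Nearest genes were picked from many candidates on 8 libraries, and genes that vary little lie near each other by this measure.

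Tfec had 18.2, 13.8, 15.0 and 12.5 CPM in SostPB/- replicates 1 to 4, and 14.8, 21.6, 19.5 and 15.1 CPM in Sost-/- replicates 1 to 4. Sost-/- replicate 2 was the highest and SostPB/- replicate 4 the lowest, as in Irf5. It stood at a log2 fold change of -0.25 (SE 0.21, adjusted p = 0.951 in edgeR). Irf5 and Tfec were the 2 readable markers of 5 listed for macrophages. As CPM of nuclear counts, their sum was 115 to 168 in SostPB/- and 127 to 202 in Sost-/- livers. The 4 readable of 7 lymphocyte markers (Cd72, Pax5, Sit1, Il7r) summed to 118 to 172 in SostPB/- and 133 to 225 in Sost-/- livers. Il7r led that sum with a mean of 690 counts, beside 107 for Cd72, 16.5 for Pax5 and 1.4 for Sit1. The log2 fold change of Pax5 was 0.26 (SE 0.65), while those of Il7r and Cd72 were negative. The 7 hepatocyte markers, led by the paraoxonase gene Pon1, summed to 11844 to 14299 in SostPB/- and 11764 to 13497 in Sost-/- livers, far above every other marker list. Collagen gene Col1a2 with Reck, for stellate cells, gave 248 to 363 in SostPB/- and 225 to 396 in Sost-/- livers. Cav1, Cav2 and Wnt2, for endothelium, gave 65.1 to 75.7 in SostPB/- and 61.3 to 77.5 in Sost-/- livers. Cftr, for bile ducts, reached at most 7.54 in SostPB/- and 3.94 in Sost-/- livers, and Hemgn, for red cell precursors, was at 0 in every library. Summed marker levels overlapped between the groups for every list with a count above 0, but single markers within a sum could differ. Aass, a lysine-degrading enzyme gene among the hepatocyte markers, lay at 914 ± 47.4 CPM in SostPB/- and 1204 ± 151 CPM in Sost-/- livers (SD, n = 4). Its groups did not overlap, and edgeR gave -0.40 on the log2 scale (SE 0.14, adjusted p = 0.687, unadjusted p = 0.0155). The groups of the other hepatocyte markers overlapped. Over all tested rows, 3.92% had groups without overlap and 6.45% an unadjusted p under 0.05 in edgeR. On the stretches these shares were 4.17% and 8.33%. The endothelial marker Wnt2 had 7.12, 3.48, 0 and 5.72 CPM in SostPB/- replicates 1 to 4, and 5.88, 9.04, 12.6 and 8.26 CPM in Sost-/- replicates 1 to 4. Of its SostPB/- libraries 3 lay below the Sost-/- range, and it did not pass the test (adjusted p = 0.924 in edgeR). The part of immune cell numbers in the levels of Irf5 and Cd72 was not tested.

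Further genes were read from a list of 75, which joins genes of innate sensing and NF-kB signalling with leukocyte and cytokine genes. Of these, 58 lie off the stretches and were not analysed here, 4 (Sit1, Ccl19, Ccl21a and the interferon gene Ifnk) had too few counts, and 13 were tested. The 58 include the listed Toll-like and NOD receptors, Myd88, the IkB kinases and the NF-kB subunits. The 13 are thus no reading of the core of the pathway. In edgeR 0 of the 13 passed, 1 had an unadjusted p under 0.05, and DESeq2 and limma-voom also called 0. In edgeR 0% of all tested rows passed, and 6.45% of them and 8.33% of rows on the stretches had an unadjusted p under 0.05. DESeq2 called 0.356% of the 14604 rows to which it gave an adjusted p. Of the 13, 5 had a positive and 8 a negative log2 fold change, with a median of -0.086, beside -0.098 for the 6 genes, -0.0049 for the rows on the stretches and -0.010 for all rows. Changes larger than those of the 6 genes were common, since 43.9% of rows on the stretches lay beyond the largest of them, 0.20 in absolute log2. The groups overlapped in all 13, where 3.92% of all rows and 4.17% of those on the stretches did not overlap.

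Trim14, an adaptor of the RIG-I route at mitochondria, had 55.8 ± 4.78 CPM in SostPB/- and 45.2 ± 18.4 CPM in Sost-/- livers (SD, n = 4; log2 fold change 0.30, SE 0.26). All 4 SostPB/- libraries lay within the wide Sost-/- range of 27.3 to 70.7 CPM. Snd1, an RNA-binding nuclease, stood at -0.16 (SE 0.16). Among adaptors, Casp8ap2, which binds caspase-8, stood at 0.25 (SE 0.19) and Nsmaf, which couples a TNF receptor to sphingomyelinase, at -0.11 (SE 0.15). In the ubiquitin system, the deubiquitinase gene Otud6b stood at 0.24 (SE 0.19) and the conjugating enzyme gene Ube2r2 at 0.093 (SE 0.15). Of the regulators of transcription, Akirin2, a nuclear partner of NF-kB, stood at -0.086 (SE 0.16), the redox protein gene Txn1 at -0.13 (SE 0.21) and Bach2, a repressor in lymphocytes, at -0.077 (SE 0.32). None of them passed the test.

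The 3 cytokine receptor genes had negative log2 fold changes, and none passed the test. Cntfr, a receptor chain for ciliary neurotrophic factor, had 11.7, 5.48, 6.17 and 8.23 CPM in SostPB/- replicates 1 to 4, and 10.5, 18.1, 15.2 and 10.2 CPM in Sost-/- replicates 1 to 4. Only SostPB/- replicate 1 lay within the Sost-/- range. It stood at a log2 fold change of -0.77 (SE 0.30, adjusted p = 0.728 and unadjusted p = 0.0286 in edgeR). Il7r, the receptor of a lymphocyte survival cytokine, had 52.8 ± 10.9 CPM in SostPB/- and 68.7 ± 14.7 CPM in Sost-/- livers (SD, n = 4; log2 fold change -0.38, SE 0.21). Il11ra1, the interleukin-11 receptor gene, stood at -0.31 (SE 0.19), and the chemokine gene Ccl27a at 0.29 (SE 0.21). Il11ra1 and Ccl27a lie in a duplicated part of chromosome 4 with near-identical copies, so their counts are uncertain.

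**Figure D4:**
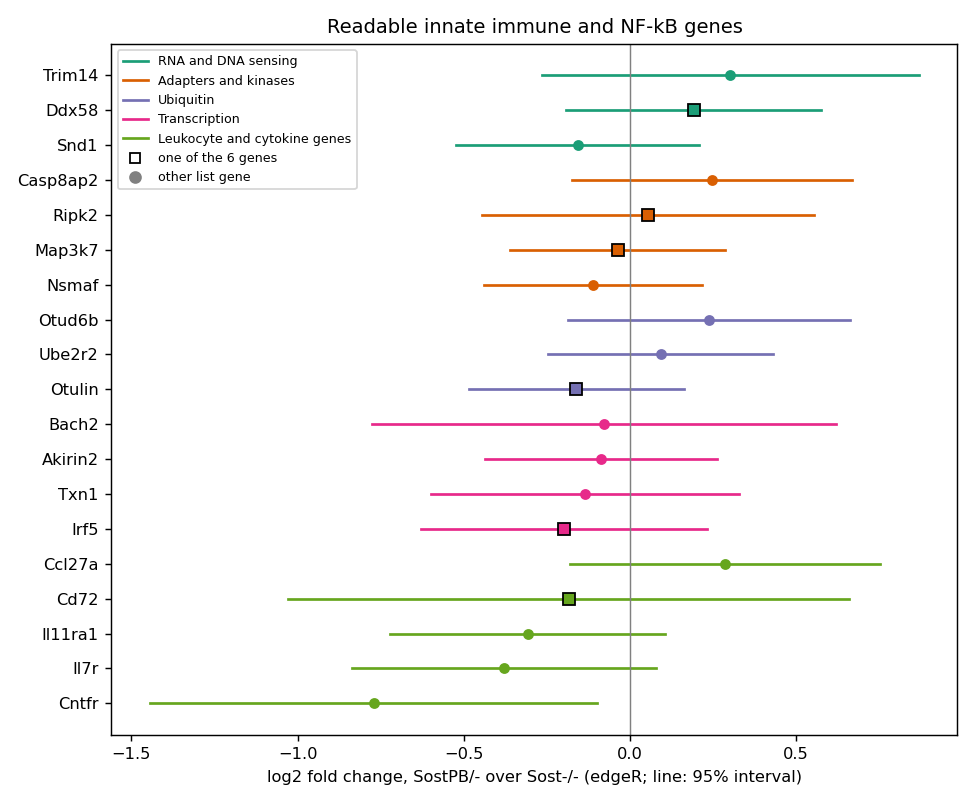
Log2 fold change of SostPB/- over Sost-/- (horizontal axis) with its 95% interval for the 6 genes (squares) and 13 other readable list genes (circles), coloured by role. The intervals of the 6 genes include 0, and of the 19 shown Cntfr alone lies with its whole unadjusted interval below it.

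Genes that share the promoter letters were described in the same way. Of 277 tested genes on the stretches with a promoter in the table, 13 held the 2-base-spacer element, Ddx58 among them. Their median log2 fold change was 0.14, against -0.033 for the 264 without it, with 7 positive and 6 negative. The 13 with the 1-base-spacer element, 10 positive and 3 negative, had a median of 0.025, against -0.037 without. The 19 with the NF-kB consensus, Map3k7 among them, were 13 positive and 6 negative and had a median of 0.050, against -0.037 for the 258 without. In edgeR 0 genes of any of these motif groups passed the adjusted threshold, and 1, 2 and 1 had an unadjusted p under 0.05. Of the 456 nuclear rows tested on the stretches, 0% passed and 8.33% had an unadjusted p under 0.05, beside 6.45% of all tested rows. Those 456 rows, which also hold rows outside the 277, split into 220 positive and 236 negative. The split of the 277 is not given here. No test was made between genes with and without a motif.

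**Figure D5:**
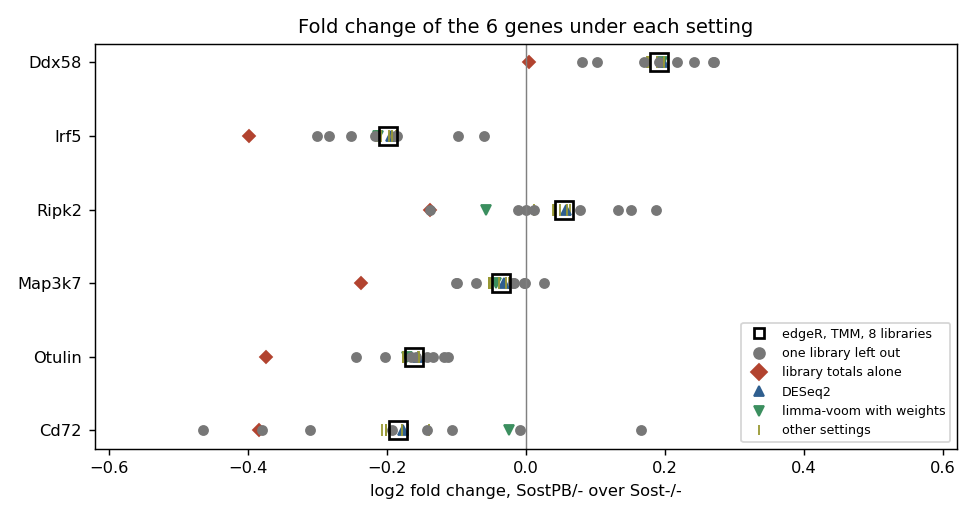
Log2 fold change of SostPB/- over Sost-/- (horizontal axis) of the 6 genes with TMM-scaled edgeR on 8 libraries (open squares) and under 17 alternatives (other symbols). Irf5 and Otulin stay below 0 and Ddx58 above 0 in every setting shown, while Ripk2, Map3k7 and Cd72 cross 0.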

How the data were processed

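Poly-A RNA of 8 liver samples was sequenced, and the authors deposited whole-number counts for 55416 gene rows. Per the submitters' processing notes, the tools were HISAT2, StringTie and DESeq2, and mm10 was the build; no versions are named there. Annotation release and strand setting were not given in the sources used here. A second deposited table of scaled values was not used here. Columns were tied to samples by the labels' descriptions.

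Positions, exon lengths and overlaps came by gene ID from GENCODE M21 (GRCm38), which held 52135 of the rows. The test was edgeR 4.0.16 run under R 4.3.3 (filterByExpr, TMM scaling, glmQLFit, glmQLFTest, Benjamini-Hochberg at 0.05 over 10020 rows). The labels call the libraries biological replicates without naming animals. The SE is the log2 fold change over the root of F. Alternatives were DESeq2 1.42.0, limma 3.58.1, other scalings and filters, a replicate block and leaving out libraries. The script was tested on simulated data. The members, lists and tests were chosen with earlier results of these data known. Genes were named if they were members, list genes with a mean of at least 50 counts, cell type markers on the stretches, or among the 2 nearest in pattern to a member. Outside this rule, and chosen after their values were seen, are the list genes below the filter, the genes used to check names (Ndufb6, Vcp, Atp6v1fnb, Cct5), and the genes whose exons or span overlap a member. Sost is named as the targeted gene.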

Additional observations from a re-analysis of the deposited data

Results flagged for a closer look

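Within each group of 4 libraries the gap of the highest or lowest to its nearest neighbour was compared with the group's range, over 46 sets, where chance gives about 1 in 20. In 3 sets a library stood apart. Map3k7 was low in Sost-/- replicate 3, at 180.0 CPM against 217 to 223 CPM in the other Sost-/- libraries. Without that library its log2 fold change was -0.10. Total counts were high in SostPB/- replicate 2, at 14613316 against at most 10412498 in its group, and in Sost-/- replicate 1, at 14932773 against at most 10554376. Without SostPB/- replicate 2 the log2 fold changes of Ripk2 and Otulin were -0.14 and -0.12, and without Sost-/- replicate 1 that of Otulin was -0.24.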

How the results depend on the processing

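Over 17 alternatives for each of the 6 genes, 0 of 6 passed in any, and of 102 values 96 kept their direction. Ripk2 turned to -0.14 with library totals alone and to -0.057 with limma-voom. Leaving out libraries moved the log2 fold change over -0.14 to 0.19 for Ripk2, -0.10 to 0.027 for Map3k7, -0.46 to 0.17 for Cd72, 0.081 to 0.27 for Ddx58, -0.30 to -0.059 for Irf5 and -0.24 to -0.11 for Otulin. The difference in the summed share of the 6 genes was -0.00776 percentage points of all counts and 0.00318 of nuclear counts. Rows called in all numbered 0 in edgeR, 52 with DESeq2, 1 with limma-voom, 2 with no filter and 0 to 4 when a library was left out, the 4 without Sost-/- replicate 1. On the stretches DESeq2 called 4 rows, and 0 to 1 were called when a library was left out, the 1 without SostPB/- replicate 3 or replicate 4. The cause was not tested. With the replicate number as a block 0 rows were called. Same-numbered libraries correlated at -0.067, -0.018, -0.049 and 0.051 in their deviations. These values show no sign of pairing by number, but with 4 libraries per group they cannot exclude it. Cd72 had 66 to 195 counts per library, and counting error at its group mean count was 10.4% in SostPB/- and 9.03% in Sost-/- livers.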
